A study of Mus musculus with 8 samples.

Results

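B cells carry an antigen receptor that signals through the chains encoded by Cd79a and Cd79b, and plasma cells are their antibody-secreting descendants. The genes described here are 8 markers of these lineages: the receptor chains Cd79a and Cd79b, the adaptor gene Blnk, the surface protein gene Ms4a1 (CD20), the transcription factor genes Pax5 and Ebf1, and the secretory genes Mzb1 and Jchain. They were chosen by symbol, and 7 of the 8 symbols stood among the 23997 genes of the table. The eighth, Jchain, stood under its older symbol Igj, which RefSeq lists as a synonym, and is given by that name. They were measured by RNA sequencing in regulatory T (Treg) cells, taken from spleen and draining lymph nodes by a CD4+YFP+ sort with purity above 97%, per the labels. The 8 genes are known as markers of cells other than the target of the sort, although some of them are also used outside the B lineage. Which cells their RNA came from was not tested.

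Bcl11b-deficient cells came from C57BL/6 mice of genotype Bcl11b f/f Foxp3-YFP-Cre/+, and thus had 2 floxed copies of this T cell transcription factor gene. Bcl11b-sufficient cells came from C57BL/6 mice of genotype Bcl11b f/+ Foxp3-YFP-Cre/+, with 1 floxed and 1 wild-type copy. Both groups carried Cre from the Foxp3 locus on 1 allele only. Foxp3 is X-linked, so such animals also hold Treg cells that use the other allele and lie outside the YFP gate. Each group had 4 libraries, and the sources used here do not give the age of the animals or say whether libraries came from separate animals. The question was which genes respond in Treg cells to loss of Bcl11b.

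Levels were FPKM, a fragment count scaled to transcript length and to library depth. Sequencing depth, estimated from the steps between low values, was approximately 2.8e+06 to 1.25e+07 fragments per library. In 3 pairs the members differed by 1.05 to 1.23 times the sampling noise of their fragments: replicates 1 with 3 and 2 with 4 of the deficient group, and 1 with 3 of the sufficient group. The other 9 pairs of the same group differed by 1.66 to 2.87 times that noise. Each near-identical pair was averaged and counted as 1 library, which left 2 deficient and 3 sufficient libraries. The p-values therefore reflect variation among 5 libraries, part of which may be technical. Bcl11b itself measured 18.7 to 24.6 FPKM over the 4 deficient libraries and 39.1 to 46.5 FPKM over the 4 sufficient ones. T cell identity was plain in every library, with Cd3e at 245 to 257 FPKM in deficient libraries, against 259 to 298 FPKM in sufficient ones. The Treg factor gene Foxp3 measured 148 to 157 FPKM in deficient libraries, against 165 to 205 FPKM in sufficient ones.

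In B cells the receptor's CD79 chains are phosphorylated by the kinases Lyn and Syk, and the adaptor encoded by Blnk then brings phospholipase C gamma 2 to Syk. Ebf1 and Pax5 install and keep B cell identity, and Ms4a1 marks mature B cells. Mzb1 encodes a chaperone of the endoplasmic reticulum used by marginal zone B cells, plasma cells and plasmacytoid dendritic cells, and the J chain joins polymeric antibodies before their secretion.

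Of the 8 genes, Mzb1 alone passed the test, at 2.09 to 2.64 FPKM in deficient libraries and 0 to 0.540 FPKM in sufficient ones. In bulk samples, more cells of a type and more RNA per cell cannot be told apart. Blnk, too low for the filter on low values, was above every sufficient library in both deficient libraries. So were 18.9% of all genes tested. Ms4a1, Pax5 and Ebf1 were at or near 0 in both groups. Igj was high in 1 of the 2 deficient libraries, and neither Cd79b (log2 fold change -0.60) nor Cd79a (0.38) passed the test. Of the 8 genes, 4 reached the filter, an average of 1 FPKM across the independent libraries, and were tested. Among these 4, 1 was called higher and 0 lower (limma, Benjamini-Hochberg adjusted p under 0.05). At an unadjusted p under 0.05, 1 was higher and 1 lower, where 9.36% of all genes tested were higher and 8.45% lower. Over all 10614 genes tested, 2.63% were called, 1.93% as higher and 0.697% as lower. These were 205 higher and 74 lower genes, against 341 higher and 30 lower when library totals were made equal.

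**Figure D1:**
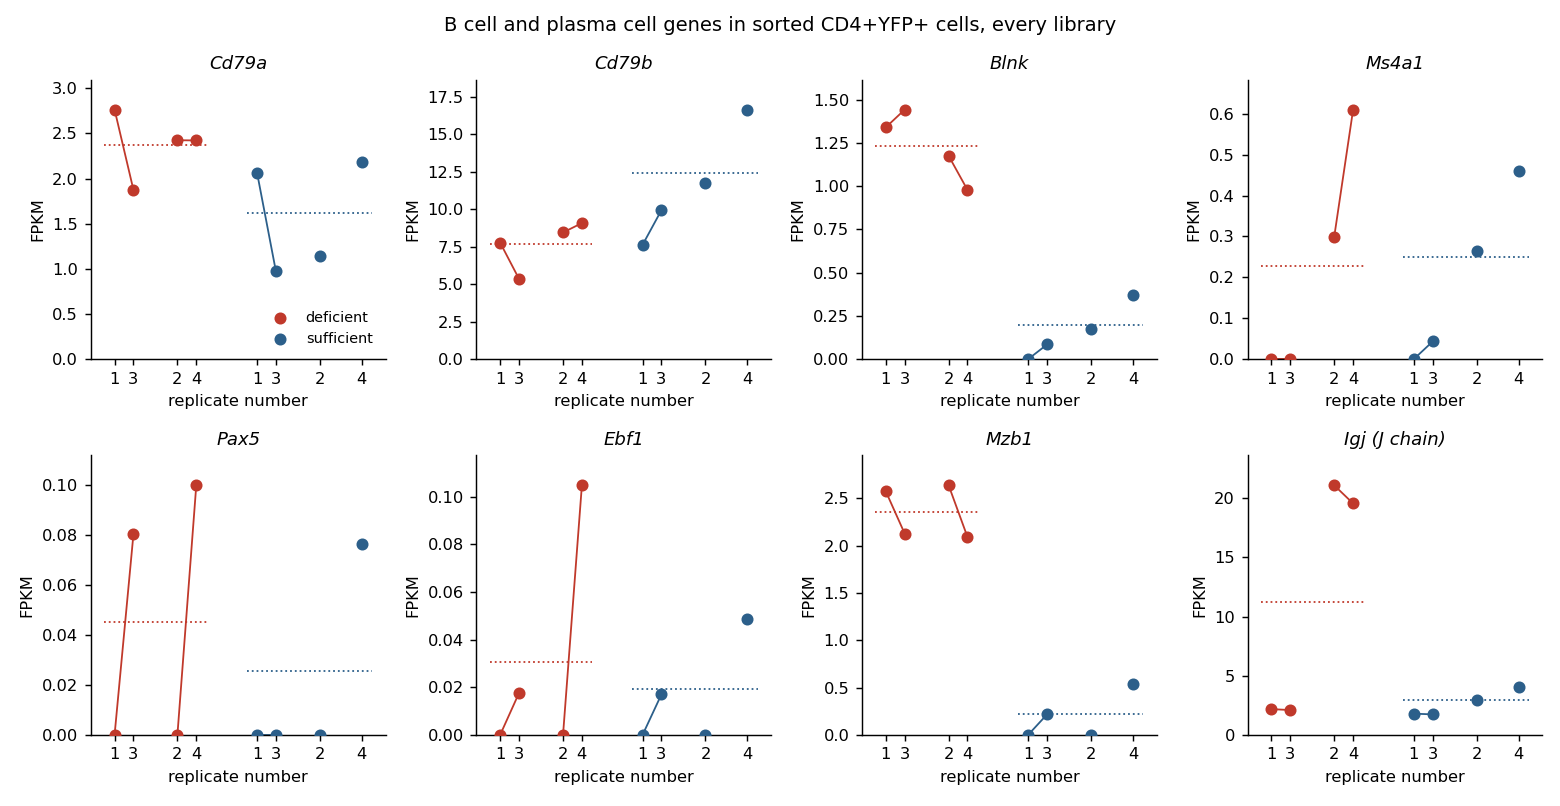
FPKM of the 8 genes in every library, with each gene on its own axis from 0. Points are libraries, a line joins a near-identical pair, and the dotted line is the mean over the independent libraries of a group. Mzb1 and Blnk are higher in deficient libraries without overlap, as were 18.9% of all genes tested over the independent libraries. Igj stands at 21.1 and 19.6 FPKM in deficient replicates 2 and 4.

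The start-site regions of 3 of the 8 genes are shown because Blnk, Igj and Cd79a differ in how they followed the groups. Whether these regions bear on the levels was not tested. RefSeq promoter entries (GRCm38.p6, 250 bases before to 50 bases after the start) were searched for Cd79a, Blnk, Pax5, Ebf1 and Jchain, 5 of the 8 genes. Mzb1 was left out of the search by choice, and no entry was found for Cd79b and Ms4a1. The motifs searched on both strands were the palindromic EBF1 core, ATGCAAAT (the octamer of OCT proteins and their coactivator), GAGGAA (an ETS-type core bound by PU.1), CAGCTG (an E-box of E proteins) and TGACCA (the core known for BCL11A, the paralog of Bcl11b). Capitals mark every match:
Blnk, chr19:40994172-40994471, minus strand: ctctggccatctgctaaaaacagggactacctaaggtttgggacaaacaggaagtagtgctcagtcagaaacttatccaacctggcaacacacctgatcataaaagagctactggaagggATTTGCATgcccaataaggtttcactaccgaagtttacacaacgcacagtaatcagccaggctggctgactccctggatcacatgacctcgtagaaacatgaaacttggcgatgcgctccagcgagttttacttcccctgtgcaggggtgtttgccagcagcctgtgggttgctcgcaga
Jchain (Igj), chr5:88527848-88528147, minus strand: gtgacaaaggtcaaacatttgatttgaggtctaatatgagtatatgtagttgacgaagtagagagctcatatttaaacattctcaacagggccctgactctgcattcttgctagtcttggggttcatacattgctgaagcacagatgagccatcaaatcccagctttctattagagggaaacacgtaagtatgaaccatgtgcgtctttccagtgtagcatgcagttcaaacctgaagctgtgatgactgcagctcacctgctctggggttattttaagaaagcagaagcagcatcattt
Cd79a, chr7:24897247-24897546, plus strand: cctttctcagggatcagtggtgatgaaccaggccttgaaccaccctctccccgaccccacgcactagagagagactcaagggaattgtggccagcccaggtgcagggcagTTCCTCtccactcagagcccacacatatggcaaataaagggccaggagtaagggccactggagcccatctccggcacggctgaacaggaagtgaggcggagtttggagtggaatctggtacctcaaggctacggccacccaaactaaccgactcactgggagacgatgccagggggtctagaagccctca
The Blnk window held the octamer, read on the opposite strand, which 1.74% of 32851 RefSeq promoter windows of this length hold. In the Cd79a window GAGGAA was matched on the opposite strand, and 28.3% of windows hold it on either strand. It was also matched at 1 of the 2 Ebf1 starts. No motif of the 5 was found in the Jchain window. Only exact matches were counted, so EBF1 sites that depart from the full palindrome were not searched. A window without a match, such as that of Cd79a for the EBF1 core, may therefore still hold an EBF1 site. Of all windows, 0.904% hold the EBF1 core, 16.3% hold CAGCTG and 13.6% hold TGACCA.

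The receptor chains were above 0 in every library. Values of single libraries are given for replicates 1 to 4 in that order. Cd79a (ENSMUSG00000003379.7, GRCm38 chromosome 7, 24897381 to 24902197, plus strand) stood at 2.76, 2.43, 1.88 and 2.42 FPKM in the deficient group, against 2.07, 1.14, 0.976 and 2.19 FPKM in the sufficient group. As estimated from depth, these values rest on 10.97 to 29.8 fragments per deficient library and 7.56 to 35.6 fragments per sufficient library. The single libraries overlapped. After averaging the near-identical pairs the groups did not, with a lowest deficient library of 2.32 FPKM and a highest sufficient library of 2.19 FPKM. Of all genes tested, 36.7% likewise showed no overlap. The log2 fold change of Cd79a was 0.38 (SE 0.22, limma adjusted p = 0.408), on the log2(FPKM + 1) scale used throughout, and the exact two-sided permutation p was 0.2. Its level per length was 0.904% to 0.972% of that of the T cell receptor subunit gene Cd3e in deficient libraries and 0.441% to 0.733% in sufficient libraries.

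Cd79b (ENSMUSG00000040592.11, chromosome 11, 106311341 to 106314762, minus strand) was the more abundant receptor chain per length in every library. It stood at 7.76, 8.44, 5.34 and 9.07 FPKM in the deficient group, against 7.62, 11.7, 9.93 and 16.6 FPKM in the sufficient group. The single libraries overlapped, and the averaged ones were apart by little, with the highest deficient library at 8.75 FPKM and the lowest sufficient library at 8.78 FPKM. The means were 7.65 ± 1.56 FPKM in deficient libraries (SD, n = 2) and 12.4 ± 3.97 FPKM in sufficient libraries (SD, n = 3). Its log2 fold change came to -0.60 (SE 0.25, limma adjusted p = 0.272; exact two-sided permutation p = 0.2). The chains of this receptor complex had fold changes of opposite sign, neither of which passed the test.

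Blnk (ENSMUSG00000061132.13, chromosome 19, 40928927 to 40994535, minus strand) was present in all deficient libraries and close to 0 in the sufficient ones. It stood at 1.34, 1.17, 1.44 and 0.978 FPKM in the deficient group, against 0, 0.173, 0.0844 and 0.368 FPKM in the sufficient group. No sufficient library reached the lowest deficient one, which over the independent libraries also held for 18.9% of all genes tested. Summed over the libraries of a group, this was an estimated 66.4 fragments in deficient and 12.9 fragments in sufficient cells. The 0 in sufficient replicate 1 allows up to 0.550 FPKM, the value of 3 fragments at its depth; such limits cover counting error only. With a mean of 0.610 FPKM over the independent libraries Blnk was below the filter. With the filter at 0.3 FPKM its log2 fold change came to 0.91 (SE 0.19, limma adjusted p = 0.0572), and 2.77% of the 11954 genes then tested were called. With no filter the adjusted p (limma) was 0.0830, and 0.578% of 17114 genes were called. The exact two-sided permutation p was 0.1, the smallest that 2 against 3 libraries allow.

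Ms4a1 (ENSMUSG00000024673.9, chromosome 19, 11249675 to 11266241, minus strand), the gene of the B cell surface protein CD20, stood at 0, 0.2998, 0 and 0.610 FPKM in the deficient group, against 0, 0.265, 0.0431 and 0.459 FPKM in the sufficient group. The groups overlapped, and the high libraries were deficient replicate 4 and sufficient replicate 4. The 0 in deficient replicate 3 came from a deeper library than the 0.610 FPKM in deficient replicate 4, and the mean of 0.227 FPKM in deficient libraries had an SD of 0.322 (n = 2). Its level was at most 0.182% of that of Cd3e in deficient libraries and at most 0.154% in sufficient libraries.

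The B cell identity factors were lower still. Pax5 (ENSMUSG00000014030.15, chromosome 4, 44524757 to 44710487, minus strand) stood at 0, 0, 0.0802 and 0.0998 FPKM in the deficient group, against 0, 0, 0 and 0.0762 FPKM in the sufficient group. Its exons overlap 2 annotated genes of the opposite strand. Ebf1 (ENSMUSG00000057098.14, chromosome 11, 44617317 to 45008091, plus strand) stood at 0, 0, 0.0176 and 0.105 FPKM in the deficient group, against 0, 0, 0.0170 and 0.0487 FPKM in the sufficient group. Values above 0 came only from libraries with an estimated 9.4e+06 fragments or more, and the groups overlapped for both genes. For Ms4a1, Pax5 and Ebf1 a difference between the groups was not detected (exact two-sided permutation p = 0.7, 0.6 and 0.5).

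Mzb1 (ENSMUSG00000024353.5, chromosome 18, 35647267 to 35649367, minus strand) rose in deficient cells. It stood at 2.57, 2.64, 2.13 and 2.09 FPKM in the deficient group, against 0, 0, 0.216 and 0.540 FPKM in the sufficient group. Every deficient library was above every sufficient one. Over the independent libraries, 18.9% of all genes tested were likewise higher without overlap. A 0 allows up to 1.42 FPKM in sufficient replicate 1 and 0.674 FPKM in sufficient replicate 2, the values of 3 fragments, both under the lowest deficient value. The means were 2.36 ± 0.00948 FPKM in deficient libraries (SD, n = 2) and 0.216 ± 0.286 FPKM in sufficient libraries (SD, n = 3). This is a log2 fold change of 1.49 (SE 0.26, limma adjusted p = 0.0356; exact two-sided permutation p = 0.1), a scale that understates changes of low genes. The values rest on an estimated 46.3 fragments in deficient and 7.07 fragments in sufficient libraries, and Mzb1 passed the filter only through its level in deficient cells. With limma the call was lost with a pseudocount of 0.1 (adjusted p = 0.121), with no filter (0.0688) and with quantile normalization (0.0556). It was also lost without sufficient replicate 2 (adjusted p = 0.0760) or without sufficient replicates 1 and 3 (adjusted p = 0.0724). Mzb1 was below the filter when either of the averaged deficient pairs was left out. An exon of Mzb1 overlaps Spata24 on the same strand. Spata24 measured 2.76 ± 0.216 FPKM in deficient libraries (SD, n = 2) and 3.73 ± 0.934 FPKM in sufficient libraries (SD, n = 3), with a log2 fold change of -0.32 (limma adjusted p = 0.451). Plasmacytoid dendritic cells also use Mzb1. Their marker list summed to 211 to 234 FPKM in deficient libraries and 183 to 197 FPKM in sufficient libraries. Of its 10 tested genes, 3 were called higher, where 1.93% of all genes tested were. Those 3 were Siglech, Klk1 and Pld4, and 7 of the 10 had a fold change above 0. Bst2, the largest part of these sums, had a log2 fold change of -0.0019, and Pacsin1 and Runx2 had -0.44 and -0.05. Siglech and Klk1 reached the filter only through deficient cells, and Klk1 was listed at 0 in every sufficient library. The part of these cells in the Mzb1 values was not tested.

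Igj (J chain, ENSMUSG00000067149.6, chromosome 5, 88519809 to 88527891, minus strand) was high in 1 of the 2 independent deficient libraries. It stood at 2.17, 21.1, 2.09 and 19.6 FPKM in the deficient group, against 1.79, 2.94, 1.73 and 4.07 FPKM in the sufficient group. Deficient replicates 1 and 3 lay within the range of the sufficient libraries, so the groups overlapped. Igj had a log2 fold change of 1.10 (SE 0.72, limma adjusted p = 0.471; exact two-sided permutation p = 0.4), and without deficient replicates 2 and 4 it was -0.28. Erythroid markers also differed between the deficient libraries, with a summed level of 23.8 FPKM in replicates 1 and 3 and 242 FPKM in replicates 2 and 4. In sufficient libraries that sum was 0.593 FPKM in replicates 1 and 3, 133 FPKM in replicate 2 and 27.6 FPKM in replicate 4. The part of other cells in the Igj values was not tested.

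Other genes of the B lineage were read from 6 lists (receptor signalling, surface proteins, transcription, plasma cells, immunoglobulins and stages), of which 74 of 88 genes had a row and 45 were tested. Of these 45, 5 rose and 0 fell, or 11.1% called, where 2.63% of all genes tested were. Among the 5, Plcg2 and Cd180 reached the filter only through their level in deficient cells, so nothing is read from these shares. At an unadjusted p under 0.05 (limma), 13 of the 45 were higher and 6 lower. Of all 10614 genes tested, 994 were higher (9.36%) and 897 lower (8.45%). Nothing is read from these counts either, for the same reason. The median log2 fold change was 0.06 over the 45 genes and -0.01 over all genes tested. The number called was 2 without sufficient replicate 2, 2 without sufficient replicate 4, 1 when deficient replicates 1 and 3 were left out, and 0 when deficient replicates 2 and 4 were. Of the immunoglobulin list, the surrogate light chain genes Igll1, Vpreb1 and Vpreb2 had rows and none reached the filter. Antibody constant-region genes were not analysed here.

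Plcg2, the phospholipase that Blnk recruits, measured 4.03 and 4.96 FPKM in the deficient libraries (replicates 1 and 3, then 2 and 4). In the sufficient libraries (replicates 1 and 3, then 2, then 4) it measured 0.109, 0.569 and 0.323 FPKM. Plcg2 had a log2 fold change of 2.05 (SE 0.23, limma adjusted p = 0.00982). It reached the filter only through deficient cells, and myeloid cells use this gene as well. Cd180, a Toll-like receptor homolog of B cells and myeloid cells, had a log2 fold change of 1.65 (SE 0.28, limma adjusted p = 0.0354). It averaged 2.78 ± 1.34 FPKM in deficient libraries, against 0.169 ± 0.130 FPKM in sufficient ones, and likewise reached the filter only through deficient cells. Ly6d, a surface marker of B lineage progenitors, averaged 8.84 ± 0.550 FPKM in deficient libraries (SD, n = 2) and 3.61 ± 0.650 FPKM in sufficient libraries (SD, n = 3). Pou2af1, the coactivator of octamer-binding proteins, averaged 6.40 ± 1.17 FPKM in deficient libraries and 2.52 ± 0.461 FPKM in sufficient libraries. Cd9, a tetraspanin of marginal zone B cells and many other cells, averaged 101 ± 13.7 FPKM in deficient libraries and 47.2 ± 1.10 FPKM in sufficient libraries.

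The receptor-proximal kinases did not pass the test: Lyn had a log2 fold change of 1.81 and Syk of 1.02 (limma adjusted p = 0.0547 and 0.0550). Lyn passed it in 6 and Syk in 8 of 21 alternative settings, some of which keep the near-identical libraries separate. The call was lost in 6 of 20 settings for Cd180, in 5 of 21 each for Ly6d and Pou2af1, in 2 of 21 for Plcg2 and in 1 of 21 for Cd9. The adaptor gene Pik3ap1 averaged 2.92 ± 1.38 FPKM in deficient libraries, against 0.717 ± 0.413 FPKM in sufficient ones (limma adjusted p = 0.109). The phosphatase genes Ptpn6 and Inpp5d, which restrain receptor signals in many blood cells, had log2 fold changes of 0.06 and 0.09, and the adaptor gene Dapp1 of -0.21. Among surface genes, Cd83 had a log2 fold change of -1.47 and Cd72 of -0.70 (limma adjusted p = 0.124 and 0.192). Fcrl1, a B cell coreceptor gene, averaged 7.29 ± 0.0204 FPKM in deficient libraries, against 4.63 ± 1.18 FPKM in sufficient ones (limma adjusted p = 0.175). The tetraspanin gene Cd37 was the most abundant of the surface list, at 213 ± 19.2 FPKM in deficient libraries and 241 ± 23.4 FPKM in sufficient ones. Faim3, the IgM Fc receptor gene, had a log2 fold change of -0.86 (limma adjusted p = 0.164). Among transcription factor genes, Bcl6 and Spi1 (PU.1) had log2 fold changes of 0.34 and 0.91, and Pou2f2 (OCT2) of -0.43 (limma adjusted p = 0.192, 0.261 and 0.225). Irf8, Ikzf3, Foxo1 and Tcf3, which T cells or other blood cells use as well, had log2 fold changes of 0.50, 0.30, -0.04 and -0.08. The plasma cell regulators Irf4 and Prdm1 had log2 fold changes of -0.51 and -0.41 (limma adjusted p = 0.154 and 0.328). Xbp1, the factor of the secretory programme, averaged 43.8 ± 3.32 FPKM in deficient libraries (SD, n = 2) and 45.6 ± 3.50 FPKM in sufficient libraries (SD, n = 3). The endoplasmic reticulum genes Herpud1, Sel1l, Hsp90b1, Pdia4 and Sec11c had log2 fold changes between -0.17 and 0.39, none of them called. Among genes of B cell stages, Dtx1, S1pr2 and Cd1d1 had log2 fold changes of -0.44, -0.25 and 0.15, none of them called. The plasma cell surface gene Sdc1 averaged 0.226 ± 0.0258 FPKM in deficient libraries and 0.265 ± 0.132 FPKM in sufficient libraries. Tnfrsf17, the plasma cell receptor BCMA, was listed at 0 in both averaged deficient libraries. Its highest averaged sufficient library, replicates 1 and 3, stood at 0.0617 FPKM.

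**Figure D2:**
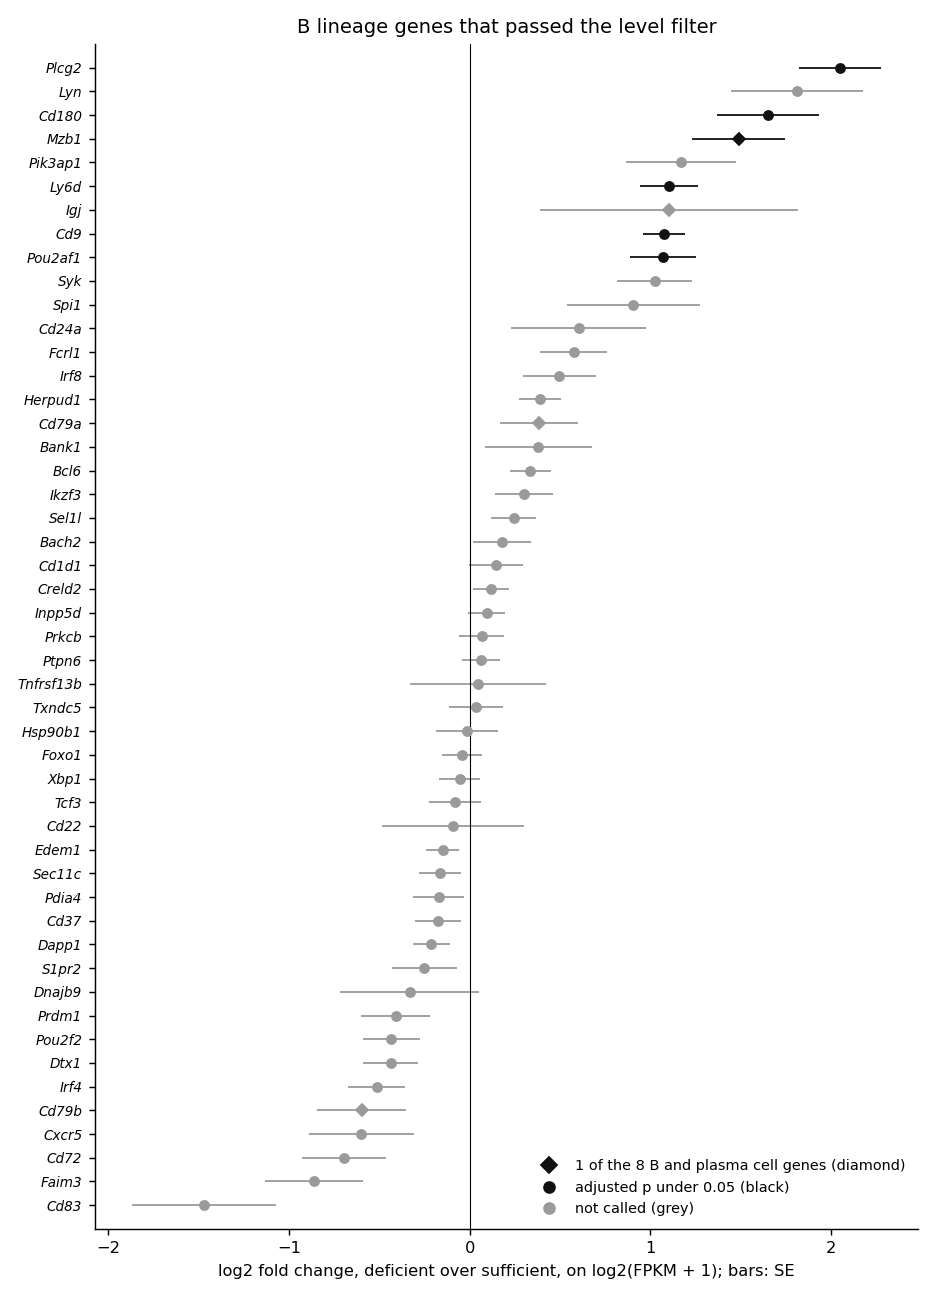
Log2 fold change, deficient over sufficient, on log2(FPKM + 1), of the B lineage genes that passed the filter. Bars are standard errors, black marks an adjusted p under 0.05 and diamonds mark members of the 8 genes. Mzb1 at 1.49 and Plcg2 at 2.05 are called, while Cd79a at 0.38 and Cd79b at -0.60 lie in grey on either side of 0.

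Genes grouped after their values were seen had 3 different distributions over the 5 independent libraries, given here as a description. Cr2 and Fcer2a, surface genes of mature B cells, had their higher values with Ms4a1 and Ebf1 in deficient replicates 2 and 4 and in sufficient replicate 4. In sufficient replicate 2, Ms4a1 was at 57.8% and Cr2 at 40.3% of the highest library. Fcer2a, for example, measured 0.131 and 0.354 FPKM in deficient cells, against 0.0436, 0.0893 and 0.295 FPKM in sufficient cells. These levels are near 0, with Cr2 at most 0.138 FPKM and Ebf1 at most 0.0524 FPKM, so counting error is large. Pax5 was not in this group. It measured 0.0401 and 0.0499 FPKM in deficient cells, against 0, 0 and 0.0762 FPKM in sufficient cells. Mzb1, Blnk, Plcg2, Lyn and Syk were instead highest in both deficient libraries. So was Cd79a, by less, at 2.32 and 2.42 FPKM in deficient cells against at most 2.19 FPKM in sufficient cells. Of all genes tested, 18.9% were likewise higher in deficient libraries without overlap. Igj was high in deficient replicates 2 and 4 alone.

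**Figure D3:**
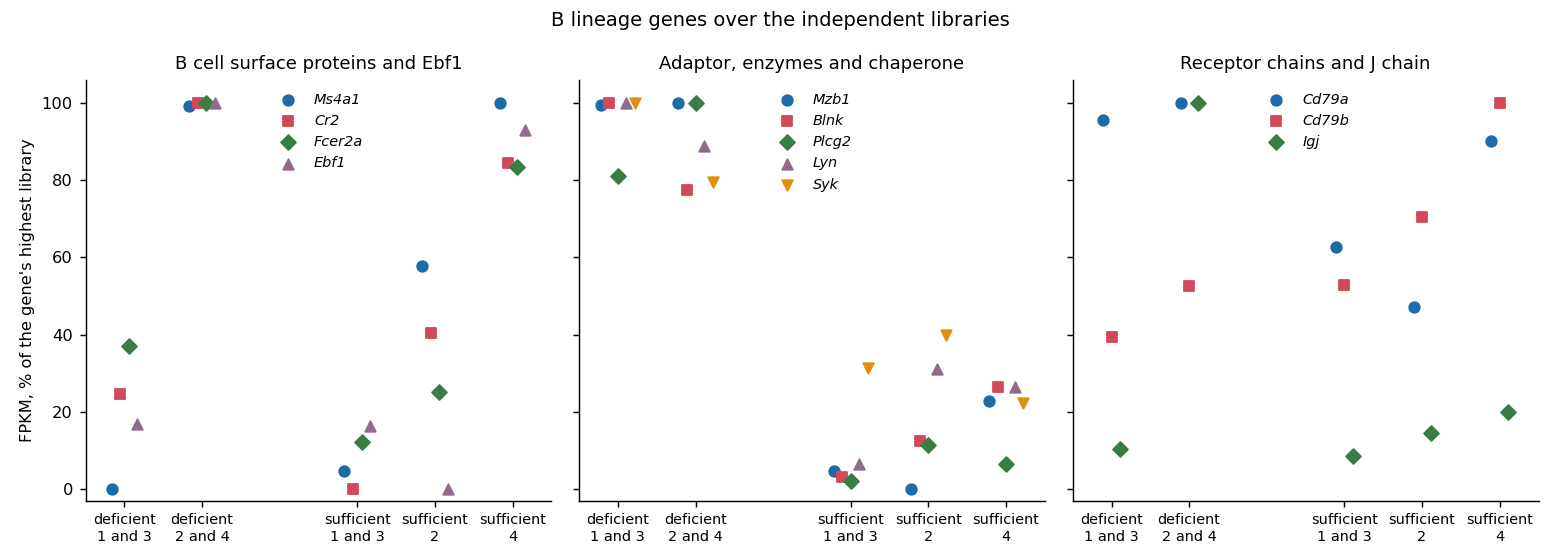
FPKM as a percentage of each gene's highest library, over the 2 deficient and 3 sufficient independent libraries. Ms4a1 reaches 99.1% in deficient replicates 2 and 4 and 0% in deficient replicates 1 and 3, whereas Mzb1 is at 99.4% or more in both deficient libraries and at most 22.8% in sufficient ones.

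Markers of some other cell types also differed between the groups. The summed level of the macrophage list was 345 to 734 FPKM in deficient libraries and 19.8 to 84.4 FPKM in sufficient libraries. Of its 13 tested genes, 8 were called higher, where 1.93% of all genes tested were. The conventional dendritic list summed to 8.67 to 9.95 FPKM in deficient libraries and 0.580 to 2.99 FPKM in sufficient libraries. The neutrophil list overlapped between the groups, at 7.43 to 38.3 FPKM in deficient libraries and 3.75 to 42.9 FPKM in sufficient libraries. Of its 5 tested genes, 0 were called. The T cell list summed to 3197 to 3344 FPKM in deficient libraries and 3489 to 4122 FPKM in sufficient libraries. The part of these cells in the values of Mzb1, Blnk, Plcg2 and the other B lineage genes was not tested.

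**Figure D4:**
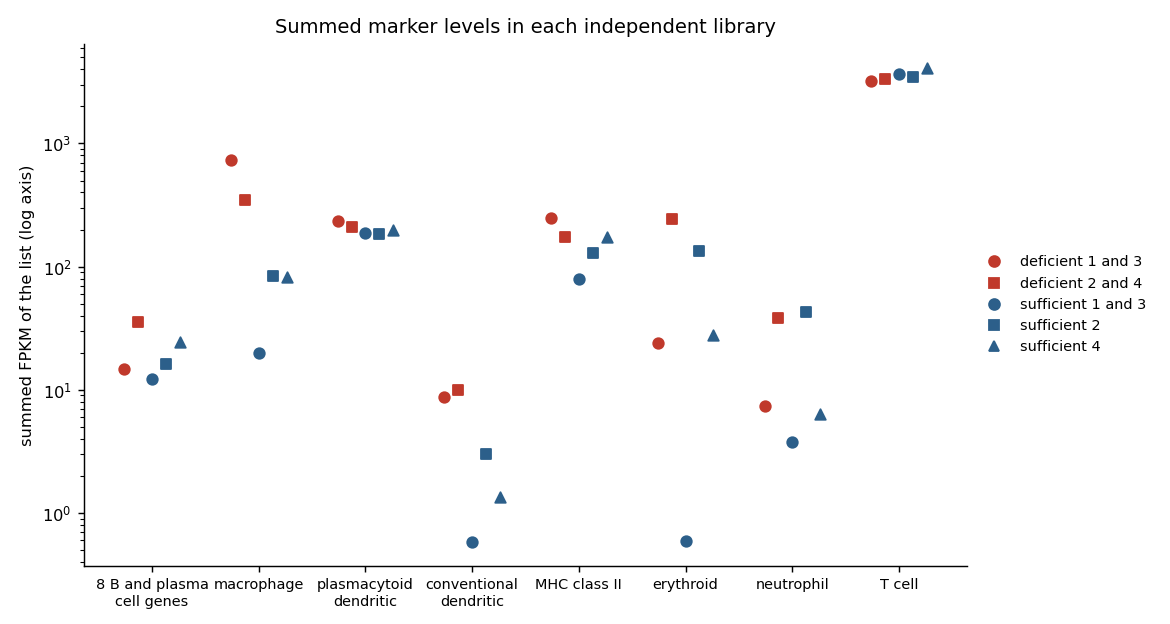
Summed FPKM of marker lists in each independent library, on a log axis. Macrophage markers are at 345 to 734 FPKM in deficient libraries and 19.8 to 84.4 FPKM in sufficient libraries, while the 8 B and plasma cell genes sum to 14.8 to 35.5 FPKM in deficient libraries and 12.2 to 24.4 FPKM in sufficient libraries.

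The genes with the most similar profile to each tested member were found by the root mean square difference of centred log2(FPKM + 1) over the 5 libraries. For Mzb1 these were Adh1 (0.0884), Icosl, Clec4a1, 1700026L06Rik and Dapl1, and for Cd79a they were Cd1d2 (0.0202), Mipol1, Cdc42ep3, Rhbdd1 and Zbtb26. For Cd79b they were Tspan17 (0.0459), Syt11, Nrn1, Naip6 and Fam69b. For Igj they were Car1 (0.359), Chil3, Alas2, Tppp3 and S100a6, at a greater distance than for the other 3.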

How the data were processed

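Per the labels, total RNA of sorted cells was made into stranded libraries and sequenced on HiSeq or MiSeq instruments. Per the submitters' processing notes, the tools include STAR 2.5.1 and build mm10, and Cuffnorm 2.2.1, Cuffdiff 2.2.1, cutadapt 1.12, Trim Galore 0.4.2 and FastQC are also named. The authors deposited FPKM per gene, and 8 of the 16 value columns of the table were not used. Depth was estimated from the spacing of low FPKM values over 2965 genes with 1 transcript, and is approximate. Libraries of a group whose difference was under 1.5 times sampling noise were averaged. Log2(FPKM + 1) was tested with limma 3.58.1 in R 4.3.3 (trend), for genes averaging 1 FPKM or more, with Benjamini-Hochberg adjustment over all 10614 genes. The fit was tested on simulated data, with changes placed only in genes of a higher level than Mzb1 and without counting error. That test does not cover genes near the filter. Single genes also had an exact permutation test over libraries. Alternatives were another pseudocount, filters, scaling, separate libraries, replicate blocks and left-out libraries. Genes, lists and tests were chosen with earlier results of these data known. Genes named were the 8 genes, any list gene called, and up to 4 with the lowest adjusted p and 3 with the highest mean per list. Cr2, Fcer2a, Sdc1, Tnfrsf17, H2-Ob and H2-Oa were named after their values were seen. Xbp1, Bst2, Pacsin1 and Runx2 were also named outside this rule.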

Additional observations from a re-analysis of the deposited data

How the results depend on the processing

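The 279 genes called became 182 with a pseudocount of 0.1, 99 with no filter, 1851 with the 8 libraries kept separate, and 8 to 297 with libraries left out. With totals made equal 371 were called, 341 higher and 30 lower, against 205 higher and 74 lower, and the median of all genes moved to 0.18. Of the 8 B and plasma cell genes, 0 were called with a pseudocount of 0.1, with no filter or with quantile normalization, and 0 to 1 with libraries left out. The adjusted p of Mzb1 (limma) was 0.121 with that pseudocount, 0.0688 with no filter and 0.0556 with quantile normalization, within 0.000673 to 0.121 over its alternatives. B lineage list genes called numbered 2 with no filter, 14 with the 8 libraries separate and 0 to 6 with libraries left out. With libraries left out, the log2 fold change of Igj ran from -0.28 (without deficient replicates 2 and 4) up to 2.49, and that of Cd1d1 from -0.00137 (without deficient replicates 1 and 3) up to 0.30. Cd79a kept a positive and Cd79b a negative fold change in all 21 alternatives. Averaging pairs by depth, chosen after seeing the data, gave 296 genes. The cause of these changes was not tested.

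Replicate numbers are shared by the groups, and same-numbered libraries deviated together little (r 0.0275 to 0.126 over 4 pairs, 1 over 0.1). Whether they share more than a number cannot be told from these values. With the replicate number as a block, 1418 genes and 14 B lineage list genes were called over the 8 libraries; with odd or even number as a block over the 5 libraries, 283 and 6. Of the 4 deficient libraries, 3 correlated best with the sufficient library of their own number. Pax5 and Ebf1 were above 0 only in libraries of 9.4e+06 fragments or more.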

Other observations

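H2-Ob, a gene of the MHC class II list that B cells use, fell in deficient cells. Its level was 8.99 and 7.95 FPKM in deficient cells, against 19.1, 16.3 and 19.9 FPKM in sufficient cells, with a log2 fold change of -1.03 (SE 0.13, limma adjusted p = 0.0151). It was the only one of 9 tested genes of the MHC class II list that was called, and that list summed to 173 to 250 FPKM in deficient and 79.2 to 175 FPKM in sufficient libraries.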
